A study of Mus musculus with 18 samples.

Results

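The 10 genes of the interleukin-1 (IL-1) and tumor necrosis factor (TNF) families that are described here were taken by gene symbol from the 36737 genes counted in mouse DRG, and all 10 had a row. They are the cytokines *Il1b*, *Il18*, *Il33* and *Tnf*, the receptor antagonist *Il1rn*, the IL-1 family receptor chains *Il1r1*, *Il1rap* and *Il1rl1*, and the TNF receptors *Tnfrsf1a* and *Tnfrsf1b*. L3–L5 DRG came from CD1 mice, an outbred strain, and the labels name no transgene or deletion. Mice with sham surgery were compared with mice with tibial fracture and vehicle (fracture) and mice with tibial fracture and PDX, and each of these groups was made of 3 male and 3 female animals that gave a library each (18 in all). The fracture groups were sampled on day 3. The day of the sham group and the PDX dose of these mice are not given in the sources used here, and the methods give an age range for adult mice in general but no age for these mice. PDX (protectin DX) is a specialized pro-resolving lipid mediator made from docosahexaenoic acid. The study tested its relief of pain after fracture and also asked how it changes gene expression in DRG.

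IL-1β binds IL1R1, which pairs with the accessory protein IL1RAP and signals through MyD88 and IRAK kinases to NF-κB, and the antagonist encoded by *Il1rn* occupies the same receptor without signaling. IL-33 uses ST2, the product of *Il1rl1*, with the same accessory protein, and IL-18 has its own receptor pair. TNF binds TNFR1 (*Tnfrsf1a*), which most cells carry, and TNFR2 (*Tnfrsf1b*), which is found mainly on immune and endothelial cells. Both cytokine families are known to sensitize nociceptors, the sensory neurons of DRG that respond to noxious stimuli.

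The total count per library was 63235040 to 82824942. All 12 markers of sensory neurons were at or above 1 CPM in every group, where CPM are read counts scaled to a common library size by TMM, and their sum was 11657 to 12401 CPM in sham, 12989 to 13634 CPM in fracture and 12385 to 14097 CPM in PDX-treated mice. The 14 macrophage markers summed to 231 to 280 CPM in sham, 178 to 230 CPM in fracture and 223 to 269 CPM in PDX-treated mice. Sham and fracture were separate by a narrow margin, with sham male 3 at 230.9 CPM and fracture female 1 at 230.3 CPM. The sum of 8 endothelial markers was 151 to 202 CPM in sham and 136 to 156 CPM in fracture. Transcripts of 8 placenta genes, which are foreign to DRG, summed to 174 to 565 CPM in sham, 29.9 to 264 CPM in fracture and 28.6 to 140 CPM in PDX-treated mice, in both sexes, and their source was not tested. In bulk tissue, fewer cells of a type and less RNA per cell cannot be told apart.

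*Tnfrsf1a* was the most abundant of the 10 genes in this tissue and *Tnf* the least. On the scale of FPKM, which corrects for transcript length and allows levels to be compared between genes, *Tnfrsf1a* had a mean level of 13.8 ± 1.55 (SD, n = 18 libraries), above 83.9% of all genes that passed the filter on low counts. *Il33* followed with 3.53 ± 0.924 FPKM and *Il18* with 2.37 ± 0.384 FPKM. *Il1r1* (1.72 ± 0.126 FPKM), *Tnfrsf1b* (1.28 ± 0.290) and *Il1rap* (1.26 ± 0.163) formed a middle group, in which *Tnfrsf1b* and *Il1rap* lay within their spread of each other. The lowest were *Il1rl1* (0.220 ± 0.0639 FPKM), *Il1b* (0.176 ± 0.0971), *Il1rn* (0.149 ± 0.0672) and *Tnf* (0.110 ± 0.0617), and these neighbors in the order also differed by less than their spread. Between 4 and 33 reads per library fell on *Tnf* and 6 to 70 on *Il1b*, whereas 2295 to 3601 fell on *Tnfrsf1a*, and the coefficient of variation over the 18 libraries was 55.1% for *Tnf*, 53.4% for *Il1b* and 10.8% for *Tnfrsf1a*.

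**Figure D1:**
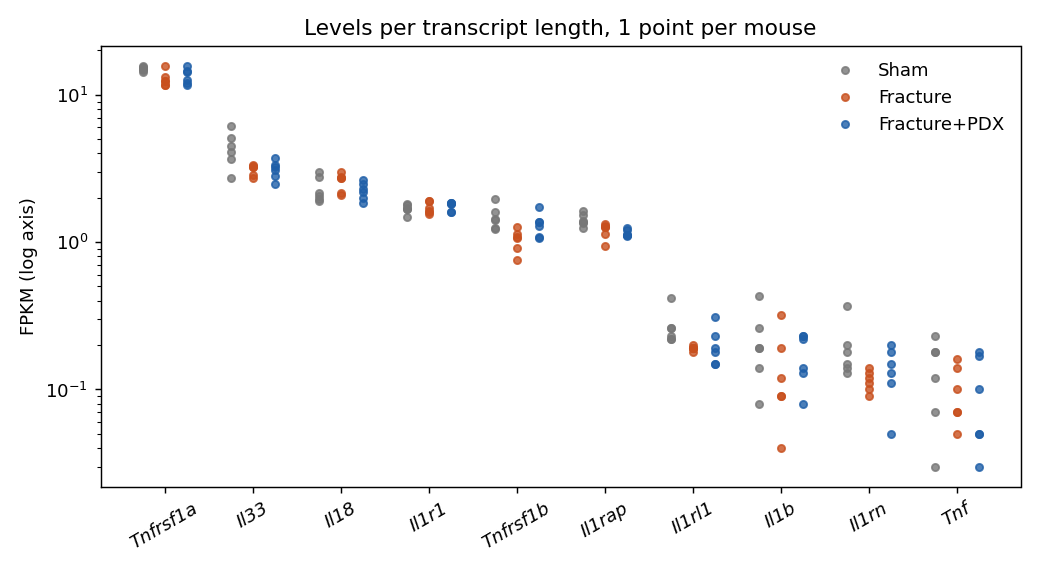
Level of each gene in FPKM (log axis), 1 point per mouse, with 6 sham, 6 fracture and 6 PDX-treated mice side by side for each gene. *Tnfrsf1a* lies above the other genes in all 18 libraries, and *Il1rl1*, *Il1b*, *Il1rn* and *Tnf* are the lowest.

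Fracture was compared with sham to ask whether these pathways change in DRG on day 3. Of the 10 genes, 0 passed an adjusted p of 0.05 with edgeR, against 603 of 20659 genes tested (2.92%). At an unadjusted p under 0.05, 6 of the 10 were lower after fracture (*Il33*, *Il1rn*, *Il1rap*, *Il1rl1*, *Tnfrsf1a* and *Tnfrsf1b*) and 0 were higher, while 9.69% of all genes tested were lower and 8.79% higher at this threshold. DESeq2 called 3 of the 10 lower (*Il33*, adjusted p = 0.0276, *Tnfrsf1a*, 0.0249, and *Tnfrsf1b*, 0.0139), out of 1511 genes, and limma on FPKM called 0. The median log2 fold change of the 10 was -0.45, beside 0.00 for all genes tested, and 8 of the 10 had a negative fold change, as did 49.3% of all genes.

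Of the 4 cytokines, 1 (*Il33*) was lower after fracture at an unadjusted p under 0.05. IL-1β, the classic mediator of inflammatory pain, was encoded by 0.161, 0.406 and 0.889 CPM of *Il1b* in sham mice (lowest, median and highest of 6), by 0.0857, 0.228 and 0.695 CPM in fracture mice and by 0.180, 0.399 and 0.500 CPM in PDX-treated mice. The 3 groups overlapped over nearly their whole range, and the sham female 1 and the fracture male 3 were the highest of their groups. Fracture against sham gave a log2 fold change of -0.57 (SE 0.490, edgeR adjusted p = 0.598), with a 95% interval from -1.62 to 0.48, and it was -1.09 without fracture male 3 and -0.21 without sham female 1. After subtraction of the group and sex means, *Il1b* varied against the satellite glia and placenta sums (r = -0.63 for each, n = 18 libraries). It varied with the sensory neuron sum (r = 0.52), and the part of these in its values was not tested. An antisense gene, *Il1bos*, overlaps *Il1b* on the opposite strand and held 172 reads over the 18 libraries. Also on the opposite strand, *Bco2* (268 reads) and *Tex12* (6) overlap *Il18*, and *Gm20319* (74) overlaps *Il1rap*. *Gm38070* (26) overlaps *Il1r1* on the same strand. The strand setting of the counting is not given in the sources used here, so reads of overlapping genes may not be fully told apart.

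*Tnf*, the founding ligand of its family, had 0.0573, 0.278 and 0.428 CPM in sham (lowest, median and highest), 0.0966, 0.162 and 0.309 CPM in fracture and 0.0600, 0.139 and 0.337 CPM in PDX-treated mice. The lowest sham mouse lay below all fracture mice and the highest sham mouse above them. The estimate for fracture against sham was -0.43 on the log2 scale (SE 0.464, adjusted p = 0.693, 95% interval -1.43 to 0.57). It was -0.23 without sham male 3 and -0.66 without sham male 1. After subtraction of the group and sex means, *Tnf* varied with the neutrophil marker sum (r = 0.64, n = 18 libraries) and against the mast cell sum (r = -0.54). The part of these cells in its values was not tested.

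*Il18*, whose product is released after cleavage by caspase-1, had 2.18, 2.37 and 3.38 CPM in sham, 2.37, 3.12 and 3.38 CPM in fracture and 2.11, 2.63 and 3.08 CPM in PDX-treated mice. It was the only cytokine of the 4 with a positive fold change after fracture, 0.17 on the log2 scale (SE 0.147, adjusted p = 0.606), and the ranges of sham and fracture nearly coincided. The fold change was 0.11 without sham female 3 and 0.28 without sham male 1. Of the marker sums, that of skeletal muscle was the one *Il18* varied with most after subtraction of the group and sex means (r = 0.59, n = 18 libraries). This sum was 27.4 to 720 CPM in sham, 58.5 to 1367 CPM in fracture and 14.9 to 653 CPM in PDX-treated mice, and its part in the values of *Il18* was not tested.

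*Il33*, an alarmin that is stored in the nucleus and set free by damaged cells, ranged over 8.51, 13.6 and 19.8 CPM in sham, 8.81, 10.3 and 10.8 CPM in fracture and 8.18, 10.1 and 11.7 CPM in PDX-treated mice. Except for sham female 1, all sham mice lay above every fracture mouse. After fracture its log2 fold change against sham was -0.47 (SE 0.150, adjusted p = 0.119). Without sham female 1 it was -0.58, with an adjusted p of 0.0367, and without sham male 2 it was -0.36. Across the 18 libraries, after the mean of each group and sex had been subtracted, *Il33* varied with the sum of the fibroblast markers (Pearson r = 0.75) and of the Schwann cell and myelin markers (r = 0.67), values that share libraries and scaling and are given as a description. The fibroblast sum was 1765 to 2334 CPM in sham and 1645 to 1893 CPM in fracture, and its part in the change of *Il33* was not tested.

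The antagonist *Il1rn* had 0.832, 1.04 and 2.24 CPM in sham, 0.578, 0.707 and 0.903 CPM in fracture and 0.315, 0.913 and 1.25 CPM in PDX-treated mice. In 5 of the 6 fracture mice the level was below every sham mouse. Its log2 fold change was -0.75 (SE 0.258, adjusted p = 0.136), the largest in size among the 10 genes in this comparison. Sham female 1 was far above the other sham mice, and without it the log2 fold change was -0.47 (adjusted p = 0.225). After subtraction of the group and sex means, *Il1rn* varied against the sum of the fibroblast markers (r = -0.80, n = 18 libraries) and with those of the B cell (r = 0.70) and neutrophil markers (r = 0.65). The B cell sum was 5.28 to 18.4 CPM in sham and 5.71 to 6.88 CPM in fracture, and the neutrophil sum was 91.2 to 392 CPM in sham, 97.5 to 203 CPM in fracture and 86.4 to 501 CPM in PDX-treated mice. After fracture the median log2 fold change was -0.78 for the neutrophil markers (1 of 12 called lower) and -0.80 for the B cell markers (1 of 8 called lower). The part of these cells in the difference was not tested.

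**Figure D2:**
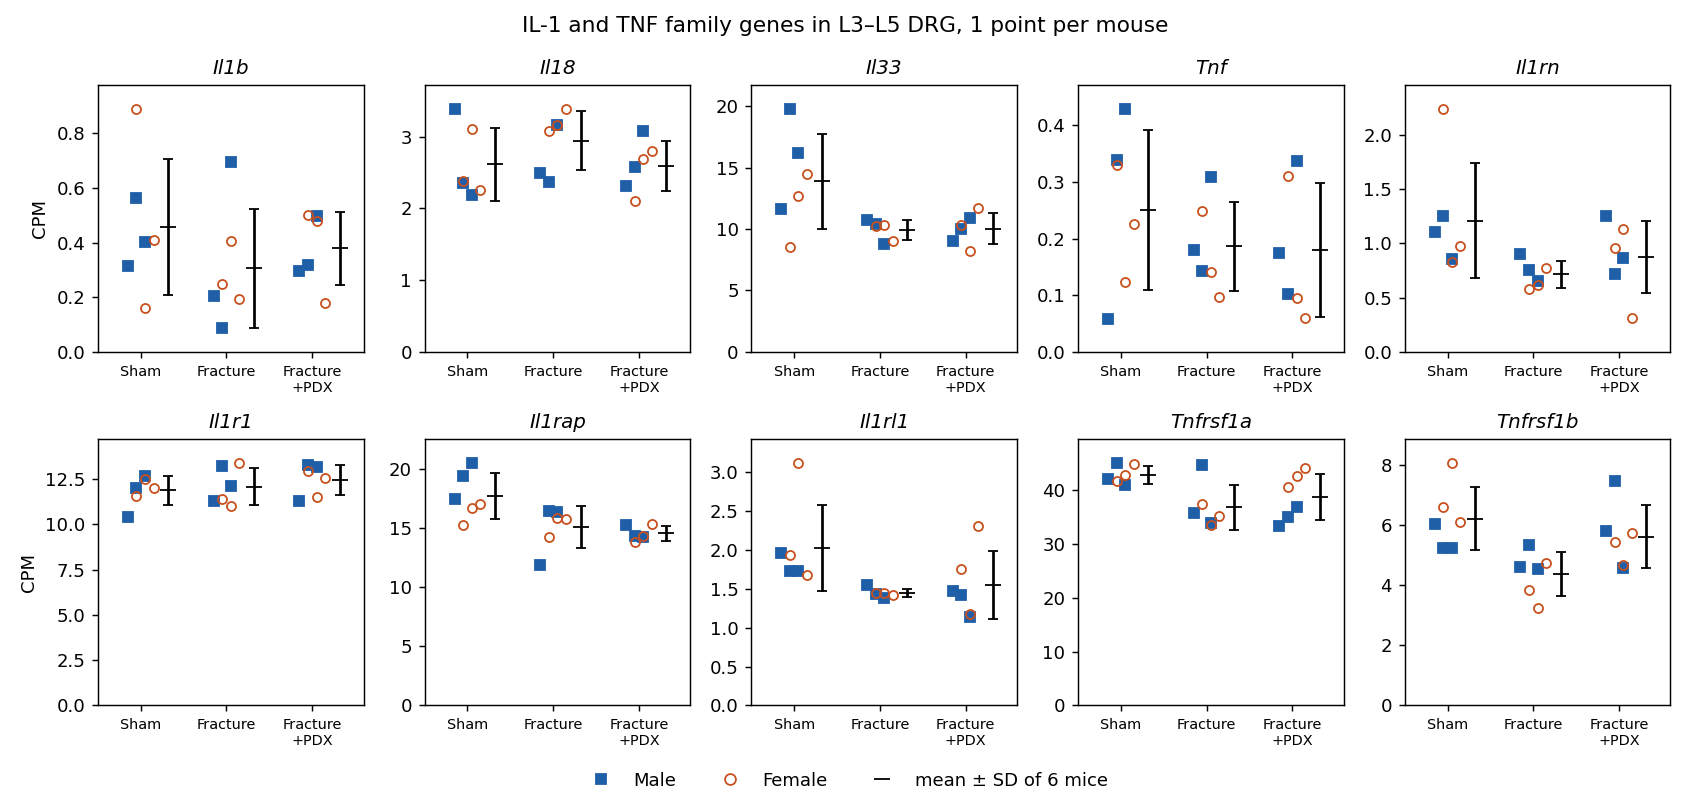
CPM of the 10 genes in sham, fracture and PDX-treated mice (1 point per mouse, males as filled squares and females as open circles, black bars mean ± SD of 6 mice, linear axes from 0). *Il1rl1* of the 6 fracture mice lies below all 6 sham mice, and *Il1rn*, *Tnfrsf1a* and *Tnfrsf1b* of 5 fracture mice do so.

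Of the IL-1 family receptors, *Il1r1*, the signaling receptor for IL-1β, had the smallest fold change after fracture. Its level was 10.4, 12.02 and 12.7 CPM in sham, 10.99, 11.8 and 13.4 CPM in fracture and 11.3, 12.7 and 13.3 CPM in PDX-treated mice. Fracture against sham gave 0.03 on the log2 scale, with a 95% interval from -0.13 to 0.18 (adjusted p = 0.895). *Il1rap* had 15.2, 17.2 and 20.5 CPM in sham and 11.9, 15.8 and 16.5 CPM in fracture, with 2 fracture mice below all sham mice. Its log2 fold change was -0.22 (SE 0.0885, adjusted p = 0.195), and it was -0.15 without fracture male 1 and -0.26 without sham female 1.

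*Il1rl1*, which encodes ST2 and is known from mast cells and type 2 lymphoid cells, had 1.68, 1.83 and 3.12 CPM in sham, 1.38, 1.43 and 1.55 CPM in fracture and 1.14, 1.44 and 2.31 CPM in PDX-treated mice. All 6 fracture mice lay below all 6 sham mice, the only member of the 10 whose groups did not overlap, and 1.53% of all genes tested were separated in this direction. Fracture against sham gave -0.48 on the log2 scale (SE 0.164, adjusted p = 0.137), and -0.32 without sham female 2, the highest mouse. The 6 fracture mice were close together (SD 0.0563 CPM), while the SD was 0.548 CPM in sham and 0.436 CPM in PDX-treated mice. After subtraction of the group and sex means, *Il1rl1* varied against the sum of the sensory neuron markers (r = -0.78, n = 18 libraries) and of the B cell markers (r = -0.55) and with that of 10 mast cell markers (r = 0.74). The mast cell sum was 81.2 to 144 CPM in sham, 82.5 to 100.3 CPM in fracture and 75.1 to 96.6 CPM in PDX-treated mice, 7 or 8 of the 10 markers were at 1 CPM or more and 0 were at 0, and their median log2 fold change after fracture was -0.66 with 1 of 9 tested called lower. The list of T cells and innate lymphoid cells summed to 2.78 to 4.77 CPM in sham and 1.48 to 3.02 CPM in fracture. Of its 10 markers, 1 reached 1 CPM in sham and 0 did in fracture. Their median log2 fold change was -0.91, with 1 of 6 tested called lower. The part of mast cells and of these cells in the change of *Il1rl1* was not tested.

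*Il1rl1* is the gene with separated groups and *Il1rap* the gene called in PDX-treated mice against sham, so the 250 bases before their RefSeq starts (GRCm38.p6) are shown. For *Il1rl1* both annotated starts are given, on the + strand of chromosome 1, the distal window chr1:40429320-40429569 and the proximal one chr1:40439379-40439628. Capitals mark GATAA on either strand (TTATC on the strand shown), the core of the sites of GATA factors, which mast cells carry. The single *Il1rap* window is chr16:26581455-26581704 on the + strand, with CG dinucleotides in capitals.
Il1rl1 distal: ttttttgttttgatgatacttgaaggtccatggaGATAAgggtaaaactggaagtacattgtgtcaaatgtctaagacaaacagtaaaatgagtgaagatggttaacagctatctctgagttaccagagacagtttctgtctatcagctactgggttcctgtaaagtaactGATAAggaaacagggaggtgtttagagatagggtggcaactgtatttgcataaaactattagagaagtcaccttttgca
Il1rl1 proximal: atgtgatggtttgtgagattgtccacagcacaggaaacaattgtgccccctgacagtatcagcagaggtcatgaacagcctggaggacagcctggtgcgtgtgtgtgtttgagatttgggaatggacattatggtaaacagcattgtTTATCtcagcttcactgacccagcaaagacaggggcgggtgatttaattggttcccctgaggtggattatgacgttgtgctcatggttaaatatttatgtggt
Il1rap: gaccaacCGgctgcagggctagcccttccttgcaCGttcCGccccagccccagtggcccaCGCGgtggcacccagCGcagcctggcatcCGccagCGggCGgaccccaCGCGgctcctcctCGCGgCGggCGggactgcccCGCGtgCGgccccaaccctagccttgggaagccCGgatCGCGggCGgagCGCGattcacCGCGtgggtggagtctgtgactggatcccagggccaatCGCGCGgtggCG
The distal *Il1rl1* window held 2 GATAA and the proximal 1, and 22.6% of all 32851 windows of the same length held at least 1 while 4.28% held 2 or more. The distal window held 0 CG dinucleotides and the *Il1rap* window 30, more than in 94.1% of all windows, whose median was 6. The gene counts do not separate transcripts from the 2 *Il1rl1* starts, nor soluble from membrane forms of either receptor.

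The NF-κB consensus was searched on both strands of the 15 windows that RefSeq gives for the 10 genes. It was found in 1 of them, before the second start of *Il1r1*, and in 3.90% of all windows. The match lay on the opposite strand, 232 bases before that start, at chr1:40266344-40266373 (GRCm38.p6, + strand shown, match in capitals with 10 bases on each side).
Il1r1 second start: cagggattttGGAATGCCCCcaaggagatg
A match or its absence describes these letters only.

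Both TNF receptors were lower after fracture at an unadjusted p under 0.05. *Tnfrsf1a* had 40.9, 42.4 and 45.1 CPM in sham, 33.6, 35.5 and 44.7 CPM in fracture and 33.4, 38.7 and 44.1 CPM in PDX-treated mice. In 5 of the 6 fracture mice it was below every sham mouse, the exception being fracture male 2. Against sham the log2 fold change was -0.22 (SE 0.0626, adjusted p = 0.0767). Without fracture male 2 it was -0.28 with an adjusted p of 0.0176, and without fracture male 3 it was -0.19.

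*Tnfrsf1b* had 5.24, 6.06 and 8.06 CPM in sham, 3.25, 4.58 and 5.32 CPM in fracture and 4.57, 5.58 and 7.46 CPM in PDX-treated mice. Again 5 of the 6 fracture mice were below every sham mouse, and the same mouse, fracture male 2, overlapped with sham. Its log2 fold change was -0.50 (SE 0.140, adjusted p = 0.0734), which is a level 0.708 times that of sham. The macrophage markers, whose sums in sham and fracture were separate by a narrow margin, had a median log2 fold change of -0.25 with 2 of 14 called lower. The endothelial markers had one of -0.18 with 2 of 8 called lower. After subtraction of the group and sex means, *Tnfrsf1a* varied with the macrophage sum (r = 0.58, n = 18 libraries). For *Tnfrsf1b* r was 0.22 with the macrophage sum, 0.11 with the endothelial sum and -0.71 with the sensory neuron sum. Its highest r were 0.49 with the placenta sum and 0.48 with the mast cell sum, and r was -0.47 with the B cell sum. The sensory neuron sum was higher in every fracture mouse than in every sham mouse, and 4 of the 12 markers were called higher. The part of the cells and transcripts behind these sums in the values of the TNF receptors was not tested.

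**Figure D3:**
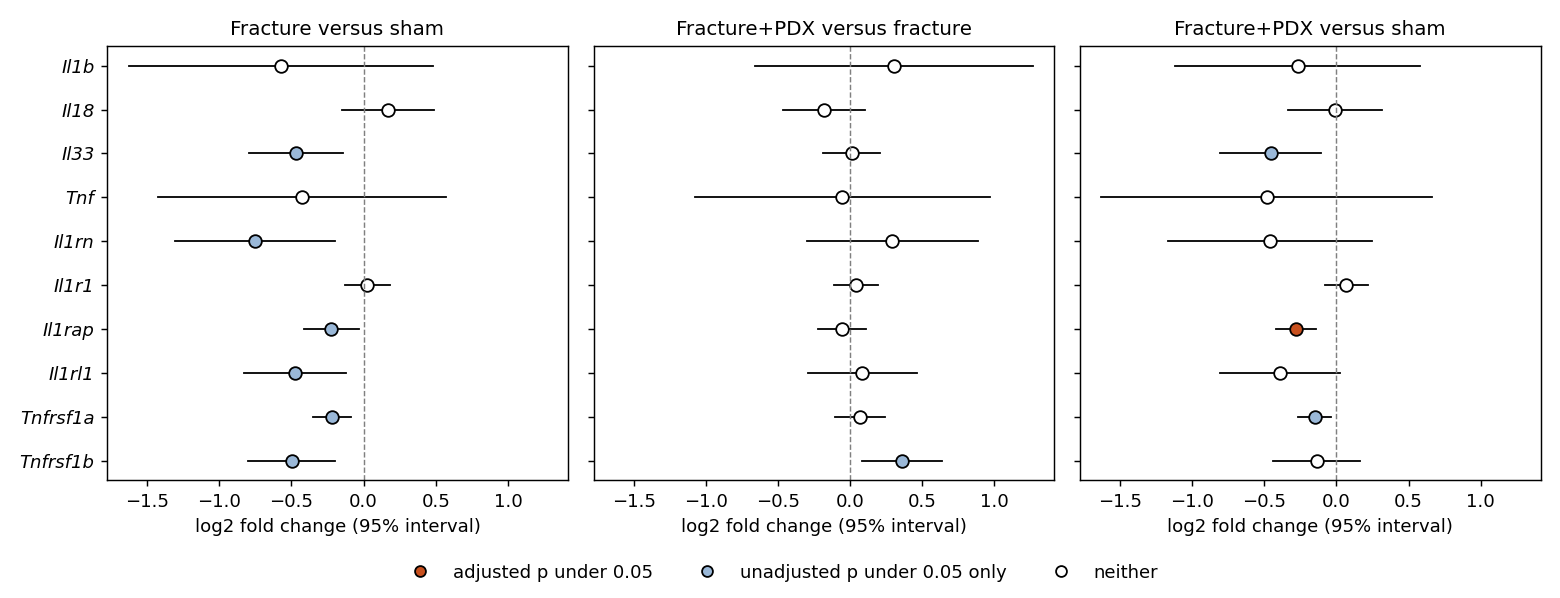
Log2 fold change of the 10 genes (edgeR, points) with 95% intervals (lines) in the 3 comparisons, filled by whether the adjusted or only the unadjusted p is under 0.05. In fracture against sham, 6 genes are lower at the unadjusted threshold, and the 1 gene with an adjusted p under 0.05 is *Il1rap* in PDX-treated mice against sham.

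The comparison of PDX with vehicle after fracture is the one the study made in its DRG sequencing. With edgeR 0 of the 10 genes and 0 of 20562 genes tested were called (0.00%), and 1113 genes (5.41%) had an unadjusted p under 0.05. DESeq2 called 15 genes, of which 0 were among the 10, and limma on FPKM called 0. *Tnfrsf1b* was the 1 gene of the 10 with an unadjusted p under 0.05 and a positive fold change, and 2.86% of all genes tested met this. It was above all fracture mice in 4 of the 6 PDX-treated mice, with a log2 fold change of 0.36 (SE 0.130, edgeR adjusted p = 0.887). The macrophage markers had a median of 0.23 with 0 of 14 called, and their part in the value of *Tnfrsf1b* was not tested. The log2 fold changes of the other cytokines and the antagonist were 0.30 for *Il1b* (95% interval -0.66 to 1.27), -0.18 for *Il18* (-0.46 to 0.11), 0.01 for *Il33* (-0.19 to 0.21), -0.05 for *Tnf* (-1.08 to 0.97) and 0.29 for *Il1rn* (-0.30 to 0.89). With 1 mouse left out, *Il1b* ranged from 0.11 (without fracture male 2) to 0.81 (without fracture male 3) and *Il1rn* from 0.15 (without PDX-treated female 2) to 0.46 (without PDX-treated female 3). The 12 neutrophil markers had a median log2 fold change of 1.1 in this comparison with 0 called, and their part in the value of *Il1rn* was not tested. The fold changes of the receptors were 0.04 for *Il1r1* (-0.11 to 0.19), -0.06 for *Il1rap* (-0.22 to 0.11), 0.09 for *Il1rl1* (-0.29 to 0.46) and 0.07 for *Tnfrsf1a* (-0.10 to 0.24). For *Il1r1*, *Il1rap*, *Il33* and *Tnfrsf1a* the intervals stayed within 0.24 on the log2 scale, whereas those of *Il1b* and *Tnf* reached about a doubling or more in at least 1 direction. Leaving out 1 mouse gave -0.25 to -0.11 for *Il18* and 0.02 to 0.08 for *Il1r1*. It gave -0.12 to -0.02 for *Il1rap* and 0.03 to 0.15 for *Tnfrsf1a*.

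Between PDX-treated and sham mice, 1 of the 10 genes was called, *Il1rap*, among 925 of 20574 genes tested (4.50%), of which 478 were lower (2.32%). *Il1rap*, the accessory chain shared by the receptors for IL-1 and IL-33, had 13.8, 14.3 and 15.4 CPM in PDX-treated mice and 15.2, 17.2 and 20.5 CPM in sham. In 4 of the 6 PDX-treated mice it was below every sham mouse. Against sham it was -0.28 on the log2 scale (SE 0.0635, adjusted p = 0.0257). The call was lost when any of 6 of the 12 mice was left out (sham males 2 and 3, sham female 2, PDX-treated males 2 and 3 and PDX-treated female 1), with adjusted p between 0.0545 and 0.0664, and with limma on log2(FPKM + 1) and log2(FPKM + 0.1), adjusted p = 0.0673 and 0.0692. *Il1rap* varied with the sum of 8 Schwann cell and myelin markers after subtraction of the group and sex means (r = 0.51, n = 18 libraries). That sum was 10670 to 24472 CPM in sham and 15340 to 17197 CPM in PDX-treated mice, with 1 of the 8 called lower, and its part in the change of *Il1rap* was not tested. Both comparisons with sham share the sham mice, and the value against fracture given above did not pass the test.

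*Il33* (log2 fold change -0.46, SE 0.162, adjusted p = 0.151) and *Tnfrsf1a* (-0.15, SE 0.0536, adjusted p = 0.151) were also lower in PDX-treated mice than in sham at an unadjusted p under 0.05, which makes 3 of the 10 genes beside 8.99% of all genes tested. *Tnfrsf1b* was -0.14 (95% interval -0.44 to 0.16), *Il1rl1* -0.39 (-0.81 to 0.03) and *Il1rn* -0.46 (-1.17 to 0.25). Each of these moved by more than 1.5 times when 1 mouse was left out, to -0.05 without sham female 2 and -0.25 without PDX-treated male 2 for *Tnfrsf1b*, to -0.25 for *Il1rl1* without sham female 2 and to -0.17 for *Il1rn* without sham female 1. The macrophage sum of the PDX-treated mice overlapped with that of the sham mice and lay partly above that of the fracture mice.

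Both sexes were studied, and the difference between them was tested itself. In the interaction of sex with fracture, 0 of the 10 genes had an adjusted p under 0.05 with edgeR, as did 0 of 20659 genes (0.00%), and 1 of the 10 had an unadjusted p under 0.05, beside 7.20% of all genes. This was *Tnfrsf1b*, with 6.10 to 8.06 CPM in sham females and 3.25 to 4.75 CPM in fracture females, beside 5.24 to 6.02 CPM in sham males and 4.54 to 5.32 CPM in fracture males. The interaction was 0.62 on the log2 scale (male minus female, SE 0.229, edgeR adjusted p = 0.617).

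In the interaction of sex with PDX after fracture, 0 of the 10 genes were called, beside 1 of 20562 genes (0.00486%). *Tnfrsf1a* was the 1 gene of the 10 with an unadjusted p under 0.05, which 4.14% of all genes had. The 3 PDX-treated females had 40.6 to 44.1 CPM and the 3 fracture females 33.6 to 37.4 CPM. The 3 PDX-treated males had 33.4 to 36.8 CPM and the 3 fracture males 34.0 to 44.7 CPM. Male minus female, the interaction was -0.38 (SE 0.126), and its edgeR adjusted p of 0.998 does not pass the correction over all genes. Between males and females over all groups, 0 of the 10 genes were called with edgeR, 0 had an unadjusted p under 0.05 beside 10.1% of all genes, and 62 of 21340 genes were called (0.291%).

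**Figure D4:**
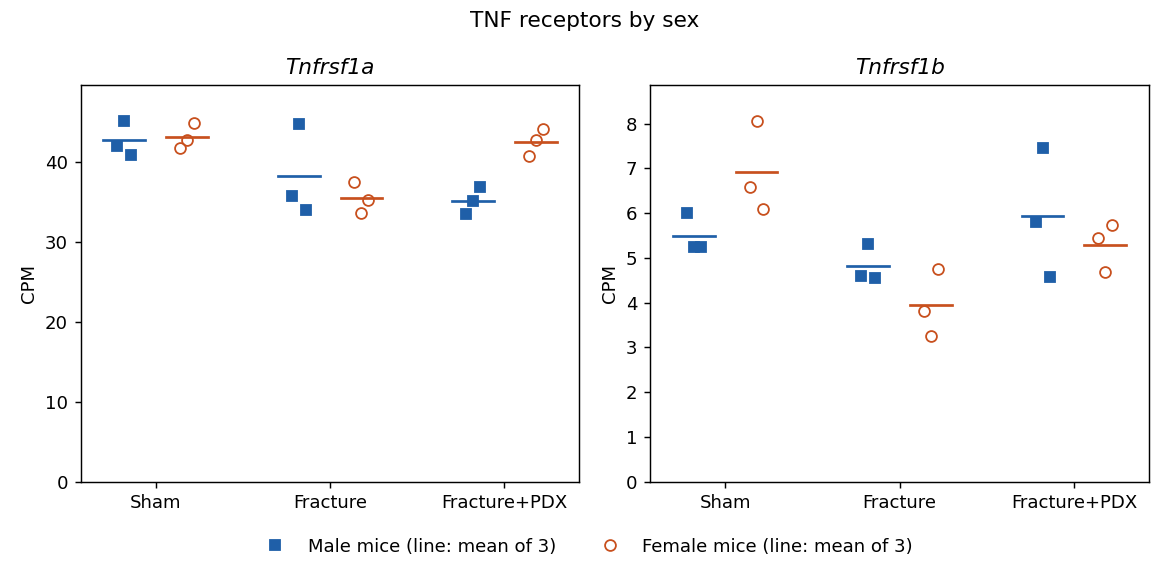
CPM of *Tnfrsf1a* and *Tnfrsf1b* in each of 3 males (filled squares) and 3 females (open circles) per group, with lines at the mean of 3 mice and axes from 0. PDX-treated females lie above fracture females for *Tnfrsf1a*, and fracture females lie below sham females for *Tnfrsf1b*.

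The genes around these cytokines and receptors were read from 9 lists of 123 genes in all. Of 107 tested between fracture and sham, 1 rose and 3 fell, with a median log2 fold change of -0.10. At an unadjusted p under 0.05 (edgeR), 6 were higher and 17 lower, beside 8.79% and 9.69% of all genes tested. Of 105 tested between PDX and vehicle after fracture, 0 were called (6 were higher and 0 lower at an unadjusted p under 0.05), and of 106 tested between PDX-treated and sham mice, 1 rose and 3 fell. The shares of all genes called in these comparisons are those given above.

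Among the TNF superfamily receptors outside the 10, *Tnfrsf9*, the costimulatory receptor 4-1BB, fell from 13.6 ± 4.01 CPM in sham to 3.78 ± 2.46 CPM in fracture (SD, n = 6; log2 fold change -1.88, SE 0.413, adjusted p = 0.0422) and was at 3.08 ± 1.22 CPM in PDX-treated mice (against sham -2.18, adjusted p = 0.00339). The sum of the placenta genes moved in the same direction over the 3 groups, and its part in this change was not tested. *Ngfr*, the p75 neurotrophin receptor and the most abundant of the genes named here in CPM, rose slightly, from 566.8 ± 25.9 to 623.7 ± 26.4 CPM (log2 fold change 0.14, SE 0.0336, adjusted p = 0.0413), and was at 604.8 ± 34.0 CPM in PDX-treated mice (against sham 0.10, adjusted p = 0.228). The sum of the sensory neuron markers was also higher, and its part in this change was not tested. Of 21 receptors tested, these were the 2 called.

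*Il1r2*, the decoy receptor that takes up IL-1 without signaling, was at 1.64 ± 0.505 CPM in sham, 0.790 ± 0.214 CPM in fracture and 0.800 ± 0.0648 CPM in PDX-treated mice. It fell in PDX-treated mice against sham (log2 fold change -1.03, SE 0.238, adjusted p = 0.0274), while fracture against sham gave -1.05 with an adjusted p of 0.0602 and PDX against vehicle gave 0.02 with an adjusted p of 0.997. In PDX-treated mice against sham, 7 of the 8 placenta genes were also called lower, and their part in the change of *Il1r2* was not tested. Only 2 genes of this list of 8 could be tested. *Lta*, the lymphotoxin ligand that also binds both TNF receptors, was at 0.439 ± 0.229 CPM in sham, 0.622 ± 0.493 CPM in fracture and 1.15 ± 0.300 CPM in PDX-treated mice. It rose against sham (log2 fold change 1.41, SE 0.277, adjusted p = 0.0124), and PDX against vehicle gave 0.93 (adjusted p = 0.901).

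Of 16 genes that IL-1 and TNF induce in many cells, 0 rose and 2 fell between fracture and sham. At an unadjusted p under 0.05 (edgeR), 6 were lower and 0 higher, and the median log2 fold change was -0.36. *Nos2*, the inducible nitric oxide synthase, fell from 1.84 ± 0.615 to 0.660 ± 0.266 CPM (log2 fold change -1.47, SE 0.307, adjusted p = 0.0258) and was at 0.417 ± 0.367 CPM in PDX-treated mice (against sham -2.52, adjusted p = 0.0418). *Icam1*, an adhesion molecule of endothelium, fell from 5.25 ± 0.503 to 3.93 ± 0.347 CPM (log2 fold change -0.42, SE 0.0998, adjusted p = 0.0406) and was at 4.16 ± 0.331 CPM in PDX-treated mice (against sham -0.34, adjusted p = 0.0766). The ranges of the endothelial and placenta sums given above also lay lower in fracture than in sham, with overlap, and their part in the changes of *Icam1* and *Nos2* was not tested.

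**Figure D5:**
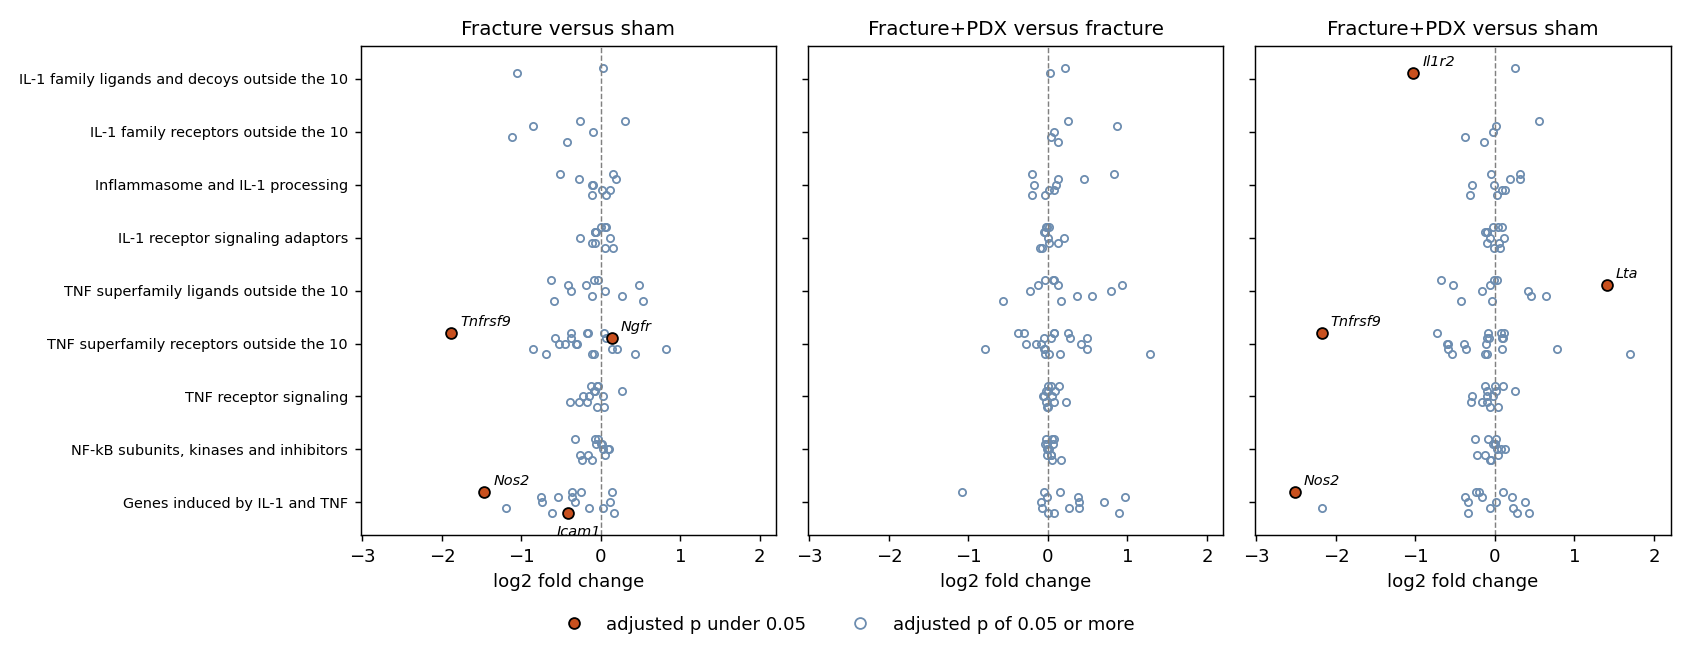
Log2 fold changes of the genes of 9 lists around IL-1 and TNF (rows), 1 point per gene tested, in the 3 comparisons, with genes of adjusted p under 0.05 filled and named. Called genes are 4 in fracture against sham, 0 in PDX against vehicle and 4 in PDX-treated mice against sham.

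In the other lists 0 genes were called with edgeR in any of the 3 comparisons, with at most 5 genes of a list at an unadjusted p under 0.05, and the gene of smallest unadjusted p in each is given as values. Among 10 inflammasome genes this was *Aim2*, a sensor of cytosolic DNA, at 0.548 ± 0.0857 CPM in fracture and 0.974 ± 0.287 CPM in PDX-treated mice (log2 fold change 0.83, adjusted p = 0.811). Among 12 adaptors it was *Tollip*, an inhibitor of IL-1 receptor signaling, at 162.6 ± 2.35 CPM in sham and 172.1 ± 3.88 CPM in PDX-treated mice (0.08, adjusted p = 0.0815). For the NF-κB list it was *Nfkb1*, which encodes the p50 precursor, at 39.1 ± 1.64 CPM in sham and 35.0 ± 2.11 CPM in fracture (-0.16, adjusted p = 0.0793). *Birc3*, a ubiquitin ligase of TNF receptor complexes, differed by -0.29 between PDX-treated and sham mice (adjusted p = 0.282), and *Il18rap*, a chain of the IL-18 receptor, by 0.87 between PDX and vehicle (adjusted p = 0.887).

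Across the 18 libraries, the deviations of the 10 genes from their group and sex means were described by Pearson's r on log2 CPM. Among the 45 pairs, *Il1b* and *Tnf* varied together (r = 0.61), as did *Il1rl1* and *Tnfrsf1b* (r = 0.60), while *Il1b* and *Tnfrsf1b* varied in opposite directions (r = -0.59). These libraries share scaling and, for *Il1b* and *Tnf*, low counts. Of 15801 or 15800 genes with a mean of at least 1 CPM, the gene most like the member was *Golga5* for *Il33* (r = 0.94), *Ndufb10* for *Il1rn* (0.91), *Prox2* for *Il18* (0.90), *Vdr* for *Tnfrsf1a* (0.89), *Gm29170* for *Il1rl1* (0.89), *Dnhd1* for *Il1r1* (0.89), *BC106179* for *Tnfrsf1b* (0.87), *Glrx2* for *Tnf* (0.82) and *Peak1* for *Il1b* (0.82). Each is the highest r among all these genes, so selection alone makes it large, and no test was made.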

How the data were processed

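Total RNA of L3–L5 DRG was sequenced as poly(A)-selected, stranded, paired-end libraries on the Illumina NovaSeq system. The authors deposited read counts per gene, without normalization, and FPKM, which are scaled for transcript length and mapped fragments. Per the labels, the processing notes name cutadapt 1.10, FastQC, HISAT2, StringTie and mm10. The counting program and its strand setting are not given in the sources used here. Columns named Con were read as sham, the one group not otherwise named. Total counts were 63235040 to 82824942 per library, and no pair of libraries was identical.

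The deposited counts were fitted with edgeR 4.0.16 in R 4.3.3 (filterByExpr with minimum count 10 and minimum total 15, TMM, robust quasi-likelihood fits, sex as covariate, 12 libraries per comparison, Benjamini-Hochberg adjustment over all genes tested, called under 0.05). CPM were scaled by TMM over all 18 libraries, and correlations used log2 CPM with a prior count of 2. Alternatives were DESeq2 1.42.0, limma 3.58.1 on log2(FPKM + 1) and log2(FPKM + 0.1), upper-quartile factors, other filters, no covariate, a replicate block of mice that share sex and number, all 18 libraries in one fit, and each library left out in turn. The scripts were tested on simulated data. Promoter windows are RefSeq's on GRCm38.p6. The 10 genes and the lists were chosen with earlier results of these data known, and named genes are the 10, the called genes of the lists (at most 4 per list), the gene of smallest unadjusted p in lists with none, and the gene most like each of the 10, of which 1 is not reported here.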

Additional observations from a re-analysis of the deposited data

Results flagged for a closer look

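In 3 of 30 groups of 6 mice, 1 mouse lay far from the others by Dixon's test, and chance gives about 1 in 20. *Il1rn* was at 2.24 CPM in sham female 1, with the next sham mouse at 1.25 CPM. *Il1rl1* was at 3.12 CPM in sham female 2, with the next at 1.96 CPM. *Tnfrsf1a* was at 44.7 CPM in fracture male 2, with the next fracture mouse at 37.4 CPM. Without these mice the log2 fold changes of PDX-treated mice against sham were -0.17 for *Il1rn* and -0.25 for *Il1rl1*, and that of PDX against vehicle was 0.15 for *Tnfrsf1a*. The values for fracture against sham without them are given with the genes. None of the 20 interactions of sex with fracture or with PDX passed an adjusted p of 0.05 with edgeR or DESeq2, and 2 had an unadjusted p under 0.05.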

How the results depend on the processing

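DESeq2 called 1511 genes between fracture and sham (3 of the 10), 15 between PDX and vehicle and 1620 between PDX-treated and sham mice (2 of the 10, *Il1rap* and *Il33*). The replicate block called 118 and 486 genes in the comparisons with sham and 0 of the 10 in PDX-treated mice against sham, where limma on FPKM with either pseudocount also called 0. Mice of the same number were not paired by the labels. Their deviations correlated at -0.0286 to 0.0515, -0.0705 to 0.126 and -0.0705 to 0.0634 in the 3 comparisons, and 4, 4 and 2 of 6 mice correlated best with their own number. *Il1rap* in PDX-treated mice against sham had an adjusted p of 0.0738 with the block.

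With each library left out in turn, 213 to 710 genes were called between fracture and sham (213 without fracture female 2), 0 to 1 between PDX and vehicle and 498 to 1008 between PDX-treated and sham mice (498 without PDX-treated female 1). Of the 10 genes, 0 to 1 (*Il33* without sham female 1, *Tnfrsf1a* without fracture male 2), 0 and 0 to 2 were called. Counts of the 10 at an unadjusted p under 0.05 were 5 to 7 lower between fracture and sham, 1 to 2 higher between PDX and vehicle and 3 to 4 lower between PDX-treated and sham mice.

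Signs turned for some values that had not passed the test. *Il33* between PDX and vehicle was -0.000519 and -0.00214 with limma, and *Il18* between PDX-treated and sham mice was 0.000856 with the block. With libraries left out, the ranges that crossed 0 were -0.0142 to 0.0551 for *Il1r1* between fracture and sham, -0.0455 to 0.0664 for *Il33*, -0.444 to 0.134 for *Tnf* and -0.0491 to 0.165 for *Il1rl1* between PDX and vehicle, and -0.452 to 0.0761 for *Il1b* and -0.0649 to 0.0847 for *Il18* between PDX-treated and sham mice. The requirement of 10 counts in every library left *Tnf* and *Il1b* without values in comparisons where a library fell below it. The causes were not tested.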
